A study of Sus scrofa with 85 samples.

Results

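The genes described here are the 4 class II genes of the swine leukocyte antigen complex (SLA, the pig MHC) named by the rule: SLA-DRA (ENSSSCG00000001453), SLA-DRB1 (ENSSSCG00000001455), SLA-DQA1 (ENSSSCG00000001456) and SLA-DQB1 (ENSSSCG00000001457). They are 4 of the 31907 genes in the count table. Their levels were read in the libraries with at least 1000000 counts and 7 to 60% of these counts in the 10 most counted genes, which left 57 of 85 libraries. The rule names the 4 genes without using their measured levels, though they were chosen with earlier results of these data known.

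Micro-endomyocardial biopsies (micro-EMB, catheter samples of less than a milligram) and whole blood of 3 female farm pigs (swine 1640, 1644 and 5385) were sequenced to ask whether such biopsies can follow gene expression after a myocardial infarction. All animals had the distal left anterior descending artery closed by a balloon for 60 min and then reopened, and no untreated animal was included. By label, the apical region was the infarcted one and the lateral region the non-infarcted one. The paper names partly inaccurate sampling of these areas as a limitation. It reports that some lateral samples, all of the same animal, clustered with early samples of the infarcted region. It holds inaccurate sampling to be the most likely reason. Which libraries these were was not examined here. Baseline biopsies, taken before occlusion, were labelled apical but were not aimed at a region and served as baseline for both regions.

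The rule kept 4 baseline libraries. From the apical region it kept 5 libraries of 0–1 h (during occlusion), 9 of 1–3 h, 4 of day 2 and 7 of day 14. From the lateral region it kept 3 of 0–1 h, 3 of 1–3 h, 4 of day 2 and 6 of day 14, and from blood 1 of baseline, 2 of 1–3 h, 4 of day 2 and 5 of day 14. Every group came from 3 animals except lateral and blood at 1–3 h, with 2 animals each, and blood at baseline, with 1. Several biopsies of a group came from the same animal, so p-values in part measure the spread between biopsies.

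Total counts of the 57 libraries ranged from 3499443 to 16659110. Of the 28 libraries left out, 25 had an even profile, with 1.3 to 6.33% of counts in their 10 most counted genes, 2 were above 60% and 1 blood library held 11505 counts. Of the 45 myocardial libraries, 6 stood apart on component 2 of a PCA of the 500 most variable genes. In these 6 fibrous libraries the summed level of 7 cardiomyocyte markers was 79.3 to 1609 CPM (counts scaled to a library total of 1000000), against 12649 to 75548 CPM in the other 39. The summed level of 8 fibroblast markers was 15120 to 85385 CPM in the 6, against 1359 to 30767 CPM. Baseline, each apical timepoint and lateral 1–3 h held 1 fibrous library each, so these went against the labelled tissue in their cardiomyocyte markers. The paper excluded 6 outlier samples high in collagen genes, which it took to come from fibrous parts of the heart. Whether these are the same samples was not examined. The fibrous libraries stayed in the main comparisons here and were left out only in an alternative setting.

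MHC class II molecules are heterodimers of an alpha and a beta chain that present peptides from the endosomal pathway to CD4 T cells. SLA-DRA and SLA-DRB1 encode the chains of the DR molecule, and SLA-DQA1 and SLA-DQB1 those of the DQ molecule. The genes are used by B cells, monocytes, macrophages and dendritic cells, can be induced by interferon gamma in other cells such as endothelium, and share promoter elements, the X and Y boxes, through which the transactivator CIITA acts with the RFX complex and NF-Y.

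The promoters are shown because class II genes are known to share these elements. The 150 bases before each RefSeq start on Sscrofa11.1 follow, 5′ to 3′ on the strand of the gene. Capitals mark ATTGG (the core of a Y box, printed CCAAT where it lies on the other strand) and AACNGATG (the end of an X box).
SLA-DRA, chr7:24824887-24825036, plus strand: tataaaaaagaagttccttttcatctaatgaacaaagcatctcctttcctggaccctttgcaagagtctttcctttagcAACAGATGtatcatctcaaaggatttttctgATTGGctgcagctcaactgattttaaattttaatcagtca
SLA-DRB1, chr7:24914017-24914166, minus strand: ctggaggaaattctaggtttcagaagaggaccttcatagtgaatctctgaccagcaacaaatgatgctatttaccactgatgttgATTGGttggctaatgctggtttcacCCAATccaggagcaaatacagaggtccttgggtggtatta
SLA-DQA1, chr7:24953322-24953471, plus strand: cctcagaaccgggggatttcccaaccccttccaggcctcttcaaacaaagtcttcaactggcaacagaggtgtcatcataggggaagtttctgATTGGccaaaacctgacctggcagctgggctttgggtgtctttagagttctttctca
SLA-DQB1, chr7:24977239-24977388, minus strand: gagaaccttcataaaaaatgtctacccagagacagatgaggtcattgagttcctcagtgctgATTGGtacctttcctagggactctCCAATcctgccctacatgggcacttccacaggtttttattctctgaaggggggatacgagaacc

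In windows of 300 bases (250 before to 50 after the start), ATTGG was found on either strand in 4 of the 4 genes and in 35.7% of 20664 RefSeq promoters. The longer Y box word CTGATTGG, which holds ATTGG, was found in SLA-DRA, SLA-DQA1 and SLA-DQB1 and in 3.63% of all promoters. AACNGATG was found in SLA-DRA and in 1.79% of all promoters. SLA-DRA was 1 of the 10 promoters, 0.0484% of all, that held both longer words. A match is a description of letters and not a site, and no match says only that the letters were not in the window.

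The 4 genes lie close together on chromosome 7, from 24825037 to 24977238, in the RefSeq annotation of Sscrofa11.1. SLA-DRA spans 24825037 to 24830650 on the plus strand, SLA-DRB1 24901386 to 24914016 on the minus strand, SLA-DQA1 24953472 to 24959313 on the plus strand and SLA-DQB1 24969034 to 24977238 on the minus strand. Their RefSeq transcripts are 1250, 1222, 1296 and 1194 bases long and differ from the assembly by 6, 29, 7 and 18 substitutions, in the same order. No other annotated gene overlaps any of them. Of the 6 exons of SLA-DRB1, 2 have a stretch elsewhere in the genome that is at least 95% identical, with 99.6% for exon 3. Its counts are therefore uncertain, since reads from DRB-like loci can be split between them. The best other match was 83.5% for SLA-DQB1 and 73.6% for SLA-DQA1, and SLA-DRA had none of at least 80 bases.

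Levels are given as log2 CPM after TMM normalization with a prior count of 2. In the myocardium SLA-DRA was at 5.47 ± 0.83 (SD, n = 45) and in blood at 6.35 ± 0.63 (n = 12). SLA-DRB1 was at 4.98 ± 1.07 in the myocardium and 6.56 ± 0.54 in blood. SLA-DQA1 was at 2.71 ± 0.84 in the myocardium and 4.85 ± 0.50 in blood. SLA-DQB1 was close to the floor in both, at -1.16 ± 1.05 and -0.97 ± 1.19. Per length, the median level in the myocardium was 35.1 CPM per kb for SLA-DRA, 26.6 for SLA-DRB1, 5.31 for SLA-DQA1 and 0.109 for SLA-DQB1. In blood the medians per length were 84.9, 93.1, 31 and 0.238 CPM per kb. Lengths are those of RefSeq transcripts matched by symbol, and the Ensembl models behind the counts were not compared. The DR chains thus had the higher levels in both tissues, and the order of the DR chains differed between the tissues.

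**Figure D1:**
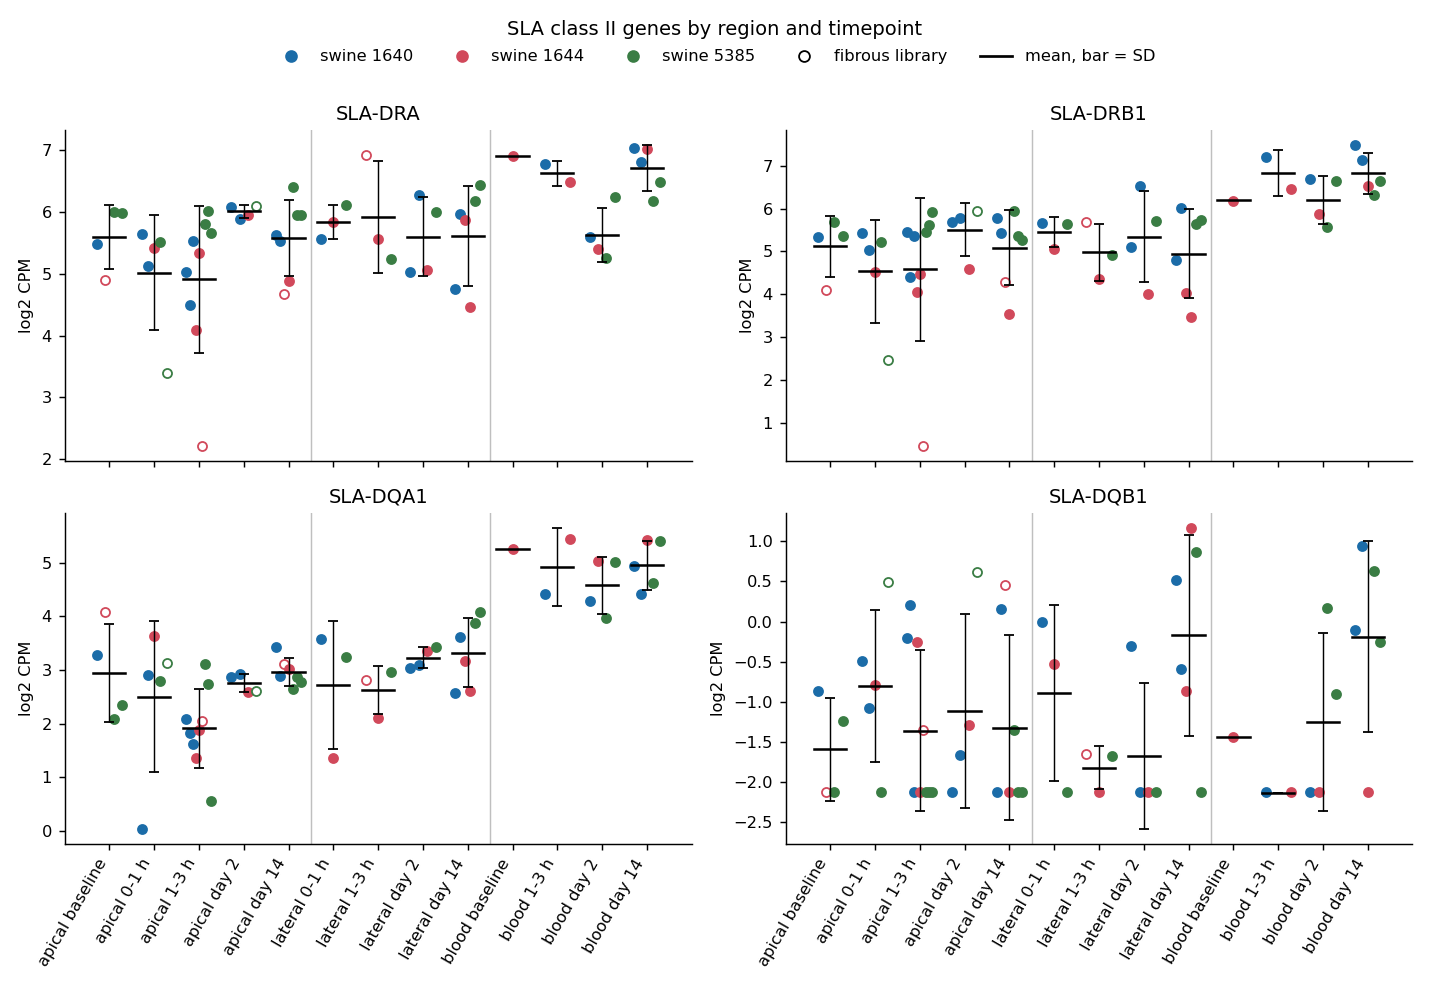
Level of each class II gene (log2 CPM, y axis) in every library that met the rule, by region and timepoint (x axis), coloured by swine; lines are group means, bars are SD, and open circles are the 6 fibrous libraries. SLA-DQA1 in blood, at 3.98 to 5.43, lies above nearly all myocardial libraries, whereas SLA-DQB1 lies between -2.13 and 1.16 throughout.

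SLA-DRA, the nearly invariant alpha chain of DR, had baseline levels of 4.90, 5.47, 5.99 and 6.00 log2 CPM. At 0–1 h the 5 apical libraries were at 3.40, 5.12, 5.41, 5.52 and 5.64. At 1–3 h the 9 apical libraries ranged from 2.21 through a median of 5.34 to 6.02. The lowest library of each of these groups was a fibrous one, and the others overlapped with baseline. At 2 days the 4 apical libraries were close together, at 5.89, 5.95, 6.09 and 6.10, within the range of baseline and just above it. At 14 days the 7 apical libraries ranged from 4.68 through 5.63 to 6.41, and again covered the baseline range.

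In the lateral region SLA-DRA was at 5.56, 5.85 and 6.12 at 0–1 h and at 5.25, 5.56 and 6.93 at 1–3 h. The highest value, 6.93, was the highest SLA-DRA level of all myocardial libraries and came from a fibrous library. At 2 days it was at 5.03, 5.07, 6.01 and 6.29, and at 14 days it ranged from 4.47 through 5.92 to 6.44. Ordered by mean, the 13 groups ran from blood at baseline (6.91, 1 library) to apical 1–3 h (4.91 ± 1.19), and of the 12 steps between neighbours only that from blood 1–3 h to apical day 2 was larger than the larger SD of the pair.

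SLA-DRB1, the polymorphic beta chain of DR, was at 4.09, 5.34, 5.36 and 5.70 log2 CPM at baseline. The 5 apical libraries of 0–1 h were at 2.47, 4.51, 5.03, 5.21 and 5.42, and the 9 of 1–3 h ranged from 0.45 through 5.36 to 5.93. At 2 days the apical levels were 4.59, 5.69, 5.78 and 5.94, and at 14 days they ranged from 3.54 through 5.35 to 5.95. The groups overlapped, and in every myocardial group but apical 0–1 h the lowest library was one of swine 1644. In the lateral region group means lay between 4.95 ± 1.03 (14 days, n = 6) and 5.46 ± 0.35 (0–1 h, n = 3). In the order of means, 2 of 12 steps exceeded the larger SD, from blood day 14 to blood day 2 and from the single blood library at baseline to apical day 2.

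SLA-DQA1, the alpha chain of DQ, was at 2.08, 2.34, 3.27 and 4.07 log2 CPM at baseline, the highest of them in the fibrous library. At 0–1 h the 5 apical libraries were at 0.04, 2.79, 2.91, 3.13 and 3.64, and at 1–3 h the 9 ranged from 0.56 through 1.87 to 3.12. At 2 days the apical levels were 2.58, 2.62, 2.86 and 2.93, and at 14 days they ranged from 2.65 through 2.89 to 3.43. The 1–3 h group had the lowest mean of all groups, 1.91 ± 0.74, and overlapped with baseline. These levels rest on few reads, a median of 24 counts per library at apical 1–3 h and 51 over the myocardium. Lateral means were 2.72 ± 1.20 (n = 3), 2.63 ± 0.45 (n = 3), 3.23 ± 0.20 (n = 4) and 3.32 ± 0.64 (n = 6) from 0–1 h to 14 days. In the order of means, 2 of 12 steps exceeded the larger SD, from blood day 2 to lateral day 14 and from lateral day 2 to apical day 14.

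Each timepoint was compared with baseline within the infarcted region, with edgeR's quasi-likelihood test and Benjamini-Hochberg adjustment over all genes tested. Regulated genes had an adjusted p of 0.05 or less. Of the 4 class II genes 3 were tested and SLA-DQB1 did not pass the filter on low counts in any comparison. At day 2, at day 14 and during occlusion (0–1 h) none of the 3 passed, and neither did any other gene (0% of 17929). At an unadjusted p under 0.05 there were 596 genes at 0–1 h, 515 at 2 days and 477 at 14 days, and DESeq2 called 2, 8 and 0 genes. None of the 3 was regulated at 1–3 h either, where 1.62% of all genes tested were.

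At 1–3 h SLA-DQA1 had the largest difference from baseline of the 3 genes, with a log2 fold change of -1.07 (SE 0.44, a fold of 0.477), and an edgeR p of 0.023 that became 0.201 after adjustment. Its log2 fold change was -0.61 without the fibrous baseline replicate 1, and it ranged from -1.87 (without swine 5385) to -0.47 (without swine 1644) over the other settings, with adjusted p of 0.122 to 0.823. SLA-DRA had a log2 fold change of -0.39 (SE 0.41) and SLA-DRB1 of -0.13 (SE 0.54). At 0–1 h the values were -0.40 (SE 0.47) for SLA-DRA, -0.36 (SE 0.60) for SLA-DRB1 and -0.26 (SE 0.51) for SLA-DQA1. At 2 days they were 0.40 (SE 0.50), 0.39 (SE 0.64) and -0.38 (SE 0.54), and at 14 days 0.06 (SE 0.44), 0.07 (SE 0.57) and -0.14 (SE 0.47), in the same order. Apart from that of SLA-DQA1 at 1–3 h, each of these differences was smaller than its SE. The median log2 fold change over all genes tested was 0.12 at 1–3 h. Without the fibrous libraries the signs of several of these small differences turned, and no class II gene passed.

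In the non-infarcted region none of the 3 genes was regulated at any of the 4 timepoints against the same baseline libraries, with 0% of the 18185 genes tested. At an unadjusted p under 0.05 there were 518, 1282, 373 and 1564 genes from 0–1 h to 14 days, and DESeq2 called 7, 58, 0 and 0. The log2 fold changes of the class II genes lay between -0.40 and 0.59, with SE of 0.39 to 0.57. The highest, that of SLA-DRA at 1–3 h, rested on the fibrous lateral replicate 4 and was -0.15 without it, and other settings gave -0.47 to 1.23. The apical and lateral comparisons share their baseline libraries.

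The regions, as labelled, were compared directly in a fit of all 45 myocardial libraries. None of the 3 genes differed between the apical and the lateral region at 0–1 h, 2 days or 14 days, with 0% of 18097 genes tested (0.956%, 3.41% and 5.31% of genes at an unadjusted p under 0.05, and 0, 5 and 0 genes by DESeq2), nor at 1–3 h, where 0.0663% of genes differed. Over the 4 timepoints the log2 fold changes of apical over lateral lay between -0.82 and 0.30. The lowest was that of SLA-DRA at 1–3 h, -0.82 (SE 0.43), with an edgeR p of 0.0659 and an adjusted p of 0.996. At this timepoint SLA-DRB1 was at 0.03 (SE 0.59) and SLA-DQA1 at -0.61 (SE 0.46). With swine as a block SLA-DRB1 was at -0.72, and at -0.64 with counts summed per animal, neither of which passed. Without the library with the highest SLA-DRA level, the fibrous lateral replicate 4, the value of SLA-DRA was -0.24, and without any fibrous library -0.09. Over the 36 tests of class II genes in the myocardium the SE was 0.38 to 0.64, and a p that missed the threshold does not show equal levels.

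**Figure D2:**
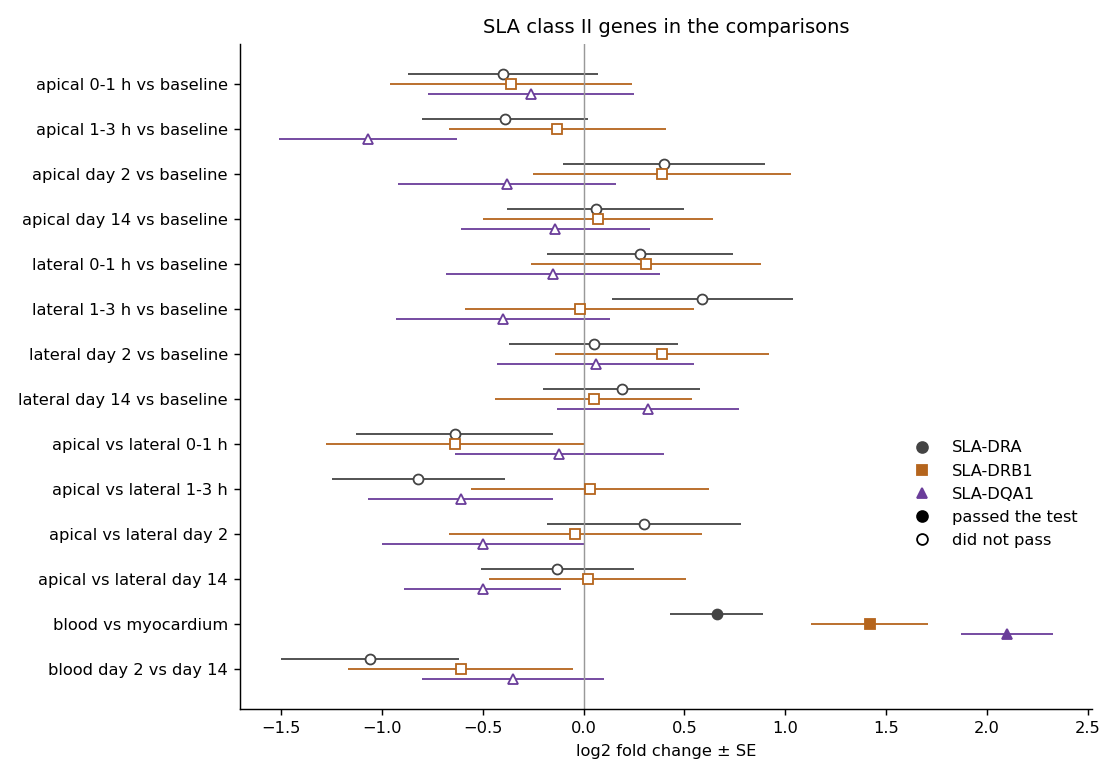
Log2 fold change (x axis, bars are SE) of SLA-DRA, SLA-DRB1 and SLA-DQA1 in the 14 comparisons (y axis); filled symbols passed the test. The values of the 12 myocardial comparisons lie between -1.07 and 0.59 and are all open, and those of blood against myocardium, 0.66 to 2.10, are filled.

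Blood held more class II RNA than the myocardium, and the difference was unequal between the genes. Blood was compared with the mean of both regions at 1–3 h, 2 days and 14 days, and 48.6% of the 18441 genes tested differed. All 3 class II genes tested were higher in blood, a share to be read against that background. SLA-DQA1 was 4.3-fold higher (log2 fold change 2.10, SE 0.23, edgeR adjusted p = 3.72e-11), SLA-DRB1 2.68-fold higher (1.42, SE 0.29, adjusted p = 3.81e-05) and SLA-DRA 1.58-fold higher (0.66, SE 0.23, adjusted p = 0.0157). The median log2 fold change of all genes tested was 0.09. In whole tissue and whole blood, fewer cells that use a gene and less RNA per cell cannot be told apart.

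The tissues overlapped least for SLA-DQA1. Of the 45 myocardial libraries, 2 were above the lowest blood library for SLA-DQA1, against 16 for SLA-DRB1 and 31 for SLA-DRA. For SLA-DQA1, blood was higher than the myocardium of the same animal by 1.86, 2.63 and 1.92 on the log2 scale in swine 1640, 1644 and 5385. For SLA-DRB1 these differences of means were 1.67, 2.22 and 0.93, and for SLA-DRA 1.08, 1.37 and 0.25. The direction was the same in 3 of 3 animals for each gene, and was smallest in swine 5385 for the DR chains. The summed level of 5 erythroid markers in the myocardium was 661 to 5897 CPM (median 3662) in swine 5385. The medians were 26.2 CPM in swine 1640 and 23 CPM in swine 1644. In swine 5385 nearly all of this sum was HBB, which reached 5895 CPM in the myocardium. Over the myocardial libraries of all animals SLC4A1 and AHSP reached at most 15.1 and 1.41 CPM. HBM and ALAS2 were listed at 0 in all libraries, blood included, so their zeros say nothing about blood in the biopsies. The median summed level of the pan-leukocyte markers in the myocardium was 140 CPM in swine 1640 and 174 CPM in swine 1644. It was lower in swine 5385, and the ranges of the 3 animals overlapped. How much blood the biopsies held was not tested. Neither was the part of blood in the class II differences.

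The call for SLA-DRA depended on single libraries and animals. Its adjusted p was 0.0569 with all libraries of at least 1000000 counts (log2 fold change 0.96), 0.0513 when mitochondrial and ribosomal protein genes were left out before normalization (0.54), 0.359 without swine 1640 (0.46) and 0.061 without swine 1644 (0.56). The call was also lost when 1 of 7 libraries was left out, with adjusted p between 0.0546 and 0.0817. These were apical day 2 replicates 1 (log2 fold change 0.53) and 6 (0.54), lateral 1–3 h replicates 5 (0.50) and 6 (0.49), lateral day 2 replicates 4 and 5 (0.51 each) and blood 1–3 h replicate 5 (0.61). With plain library totals in place of TMM, the difference of means was 1.41 for SLA-DRA, 2.11 for SLA-DRB1 and 2.65 for SLA-DQA1, while the median over all genes moved from 0.16 to 0.63. Relative to that median each gene differed by nearly the same amount on both scales.

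Within blood, SLA-DRA was at 5.26, 5.40, 5.59 and 6.25 log2 CPM at 2 days and at 6.18, 6.49, 6.81, 7.02 and 7.04 at 14 days. Only the highest library of 2 days reached the range of 14 days. The log2 fold change was -1.06 (SE 0.44), with an edgeR p of 0.0201 and an adjusted p of 0.997. Over the other settings the adjusted p was between 0.609 and 1. Neither SLA-DRB1 (-0.61, SE 0.56) nor SLA-DQA1 (-0.35, SE 0.45) passed, and 0% of the 18441 genes did (578 at an unadjusted p under 0.05, and 0 by DESeq2). The 2 blood libraries of 1–3 h were at 6.49 and 6.77 for SLA-DRA.

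Ratios of counts within a library do not depend on how libraries are scaled. The log2 ratio of SLA-DRB1 to SLA-DRA was -0.49 ± 0.54 (SD, n = 45) in the myocardium and 0.21 ± 0.47 (n = 12) in blood, a difference of 0.70. The log2 ratio of SLA-DQA1 to SLA-DRA was -2.79 ± 1.10 in the myocardium and -1.51 ± 0.58 in blood, a difference of 1.28. These ratios were chosen after the levels were seen, with the gene that differed least as denominator, and are descriptions. Without the fibrous libraries the differences were 0.64 and 1.44.

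The ratios also differed between the animals. The log2 ratio of SLA-DRB1 to SLA-DRA in the myocardium was -0.01 ± 0.20 in swine 1640 (n = 15), -0.43 ± 0.27 in swine 5385 (n = 16) and -1.06 ± 0.50 in swine 1644 (n = 14). In blood it was 0.57 ± 0.35, 0.26 ± 0.12 and -0.20 ± 0.53 in the same animals (n = 4 each). For this ratio swine 1644 was the lowest and swine 1640 the highest of the 3 in each tissue. The log2 ratio of SLA-DQA1 to SLA-DRA did not keep one order. In the myocardium it was lowest in swine 5385, followed by swine 1640 (-2.87) and swine 1644 (-2.47), and in blood it was lowest in swine 1640 (-2.05), followed by swine 5385 (-1.30) and swine 1644 (-1.18).

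The log2 ratio of SLA-DQA1 to SLA-DRB1 separated the animals fully in blood. It was between -2.80 and -2.40 in the 4 blood libraries of swine 1640, between -1.72 and -1.26 in those of swine 5385 and between -1.11 and -0.85 in those of swine 1644. In the myocardium the means had the same order, -2.85 ± 0.93, -2.57 ± 1.26 and -1.41 ± 1.42, but the animals overlapped. The level of SLA-DRB1 in the myocardium was 5.46 ± 0.51 log2 CPM in swine 1640, 5.37 ± 0.82 in swine 5385 and 4.04 ± 1.18 in swine 1644. With 3 animals, differences between them are described and were not tested. Differences of alleles from the reference sequence were not examined here.

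**Figure D3:**
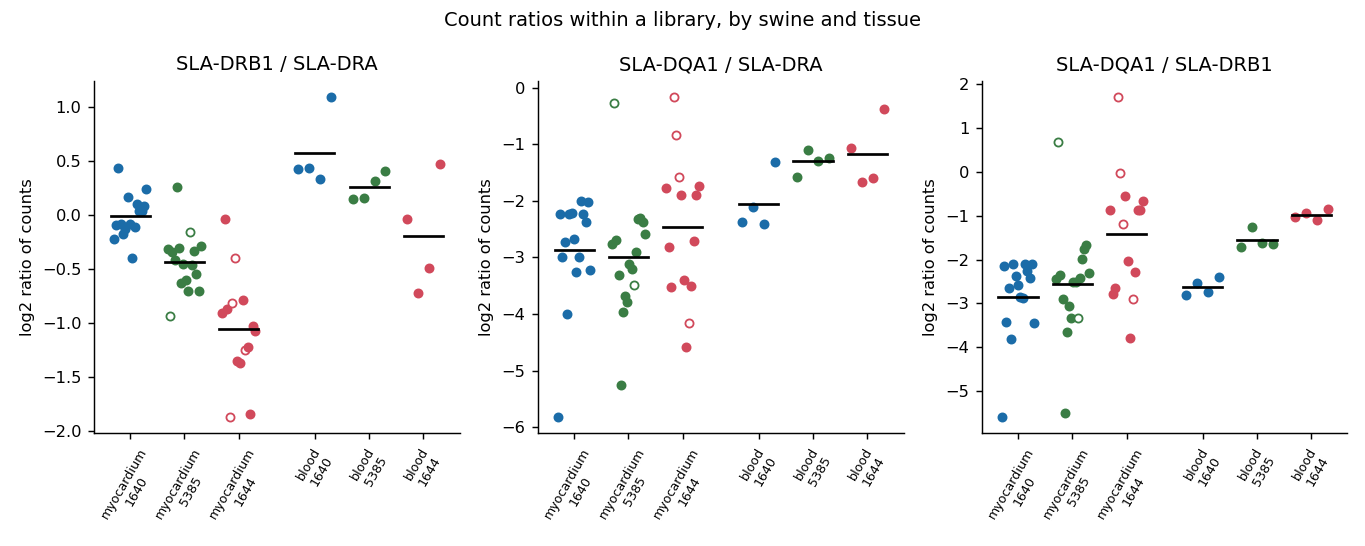
Log2 ratio of the counts of 2 class II genes in the same library (y axis), for each swine in myocardium and in blood (x axis); lines are means and open circles are fibrous libraries. In the 3 animals the ratio of SLA-DRB1 to SLA-DRA falls in the order 1640, 5385, 1644 in both tissues, and that of SLA-DQA1 to SLA-DRB1 does not overlap between the animals in blood.

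SLA-DQB1, the beta chain that pairs with the SLA-DQA1 product, was nearly absent from the counts. How the gene model used for counting and the mapping of reads from other alleles bear on these counts was not tested. It was at 0 counts in 19 of the 45 myocardial and 5 of the 12 blood libraries, where 3 counts of the total allow levels of up to 0.278 to 0.673 CPM. Its median was 0.13 CPM in the myocardium and 0.284 CPM in blood, and its highest count was 38, in a lateral library of 14 days. SLA-DQA1 in the same libraries had medians of 6.88 and 40.2 CPM. In fits without a filter on low counts, SLA-DQB1 passed in 0 of the 14 comparisons, and its unadjusted edgeR p was under 0.05 in 0 of them (lowest 0.082).

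The 25 libraries with an even profile gave another picture for this gene. They held 31 to 75 counts of SLA-DQB1 each, none at 0, with a median of 4.73 CPM in the 15 myocardial and 4.85 CPM in the 10 blood libraries. SLA-DRA had a median of 13.6 CPM in these myocardial libraries, against 43.9 CPM in those that met the rule. So SLA-DQB1 was higher in the libraries left out, while SLA-DRA was lower. The part of the even profile in the SLA-DQB1 counts was not tested.

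**Figure D4:**
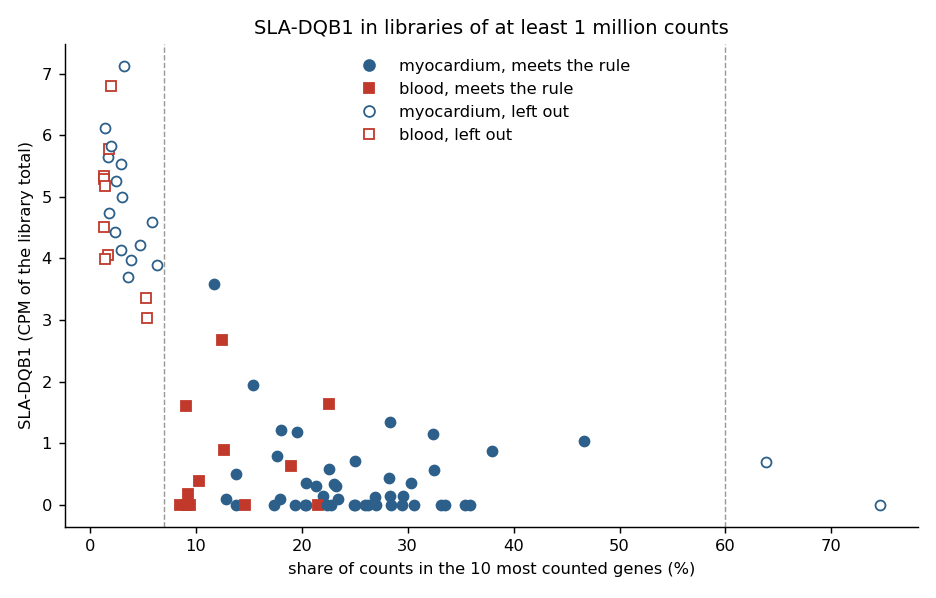
SLA-DQB1 (CPM of the library total, y axis) against the share of counts in the 10 most counted genes (%, x axis) in the libraries of at least 1000000 counts; dashed lines are the bounds of 7 and 60%. All 25 libraries below 7% hold 3.03 to 7.13 CPM, and the 57 between the lines hold 0 to 3.58 CPM.

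Of 12 measured genes that load class II molecules or control their expression, 11 were higher in blood than in the myocardium and 1 was lower, where 48.6% of all genes tested differed. The median log2 fold change of this list was 1.57, against 0.09 for all genes tested. SLA-DOB, a chain of the DO molecule that restrains peptide exchange, was higher by 3.57 (SE 0.34), SLA-DMA, a chain of the DM molecule that exchanges peptides, by 1.82 (SE 0.18), the transactivator CIITA by 1.66 (SE 0.18) and RFX5, a subunit of the RFX complex, by 1.36 (SE 0.14). The invariant chain CD74, named after its value was seen, which escorts class II molecules to the endosome, was higher by 0.82 (SE 0.16), and the protease LGMN was lower by 1.82 (SE 0.24). In the 12 myocardial comparisons none of the 12 genes was regulated, and the list's median lay between -0.45 and 0.51. Of all genes tested, 1.62% were regulated at apical 1–3 h, 0.0663% between the regions at 1–3 h, and 0% in the other myocardial comparisons.

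Of 15 listed genes of class I presentation 5 were tested, and these 5 were higher in blood, against the same 48.6% of all genes, with NLRC5, the class I transactivator, at a log2 fold change of 2.45 (SE 0.18). Of 11 genes of the interferon gamma response, 9 were higher in blood (median 1.28), and CXCL9, a chemokine induced by interferon gamma, was lower at -4.21 (SE 0.88). The interferon gamma list held the only gene of all 14 lists that passed in any myocardial comparison. It was JAK2, a kinase of the interferon gamma receptor, which was higher at apical 1–3 h than at baseline by 1.80 (SE 0.47, edgeR adjusted p = 0.0433). In that comparison 1.62% of the 17929 genes tested passed, a share against which this single gene is to be read.

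The pan-leukocyte markers differed more between the tissues than the class II genes did. All 5 pan-leukocyte markers were higher in blood, where 48.6% of all genes tested differed, with a median log2 fold change of 4.02. Their summed level was 66.8 to 617 CPM in the myocardium and 3364 to 5540 CPM in blood. Relative to the mean of these 5 markers, SLA-DRA was at 0.97 ± 0.97 on the log2 scale in the myocardium (n = 45) and at -2.63 ± 0.38 in blood (n = 12). SLA-DRB1 was at 0.49 ± 1.26 and -2.42 ± 0.42, and SLA-DQA1 at -1.78 ± 1.10 and -4.13 ± 0.35. All 3 genes were thus lower per pan-leukocyte marker RNA in blood than in the myocardium.

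Of the cell types that use class II genes, 5 of 5 B cell markers tested were higher in blood (median 5.15), again where 48.6% of all genes differed, and their median summed level was 13.8 CPM in the myocardium and 916 CPM in blood. CD79A was listed at 0 in all libraries. Of 6 dendritic cell markers 3 were higher in blood and 1 lower. Of 10 monocyte and macrophage markers 2 were higher and 4 lower, and C1QC, a complement subunit of tissue macrophages, was lower by 6.54 (SE 0.70). All 5 endothelial markers tested were lower in blood (median -4.56), with a summed level of 69.6 to 1429 CPM in the myocardium. Of the other markers tested, 8 of 8 T and NK cell, 4 of 4 neutrophil, 2 of 3 erythroid and 1 of 2 platelet genes were higher in blood, and 6 of 6 cardiomyocyte and 7 of 7 fibroblast genes were lower. The part of these cell types in the class II levels was not tested.

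The genes whose pattern over the 45 myocardial libraries was most like the mean log2 CPM of the 4 class II genes were TPD52 (Spearman's rho 0.638), L1CAM (0.627), CIITA (0.614), NEURL1B (0.6), ZNF544 (0.594), ANKRD44 (0.584), ADAP2 (0.567), PSMB9 (0.562), ERAP2 (0.56) and BICD1 (0.558), out of 12889 genes with a symbol. The values are descriptions over libraries that share depth and scaling. Since SLA-DQB1 was near the floor, the mean of the other 3 genes was also used, a choice made after the values were seen. CIITA, through which class II promoters are activated, then ranked 1 of 12889 with a rho of 0.831, followed by the endothelial receptor TEK (0.743) and NEURL1B (0.726).

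CIITA was between 3.44 and 6.86 log2 CPM in the myocardium, with a median of 6.09. Its rho with the mean of the 3 genes was 0.817 in the 39 libraries that were not fibrous, 0.896 in the 15 of swine 1640, 0.684 in the 14 of swine 1644 and 0.726 in the 16 of swine 5385. By gene it was 0.813 for SLA-DRA, 0.754 for SLA-DRB1 and 0.37 for SLA-DQA1. In the 12 blood libraries the rho was 0.161 for the mean, with 0.014 for SLA-DRA, -0.308 for SLA-DRB1 and 0.811 for SLA-DQA1. Among the members, SLA-DRA and SLA-DRB1 had a rho of 0.78 in the myocardium, against 0.156 for SLA-DRA and SLA-DQA1 and 0.128 for SLA-DRB1 and SLA-DQA1. With SLA-DQB1, which was near the floor, the rho was -0.295 for SLA-DRA, -0.16 for SLA-DRB1 and -0.113 for SLA-DQA1.

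**Figure D5:**
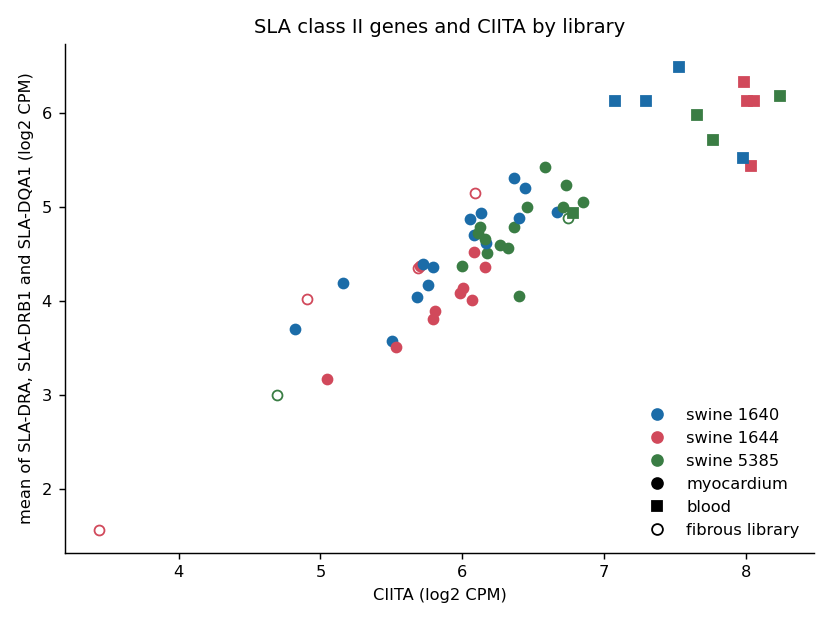
Mean level of SLA-DRA, SLA-DRB1 and SLA-DQA1 (log2 CPM, y axis) against CIITA (log2 CPM, x axis) in each library that met the rule; circles are myocardium, squares are blood, colours are swine and open circles are fibrous libraries. The mean rose with CIITA over the myocardial libraries (rho 0.831, n = 45 from 3 animals). By gene the rho there was 0.813, 0.754 and 0.37 for SLA-DRA, SLA-DRB1 and SLA-DQA1. Among the 12 blood libraries it was 0.161 for the mean, with 0.014, -0.308 and 0.811 in the same order.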

How the data were processed

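RNA was prepared with a stranded kit for low input. The authors used STAR and featureCounts with Sscrofa11.1 and Ensembl genes (tool versions not given in the sources used here) and deposited raw counts, whose column names mark counting without strand.

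The 57 libraries used held 3499443 to 16659110 counts, and floors cover counting error only. edgeR 4.0.16 in R 4.3.3 (TMM, quasi-likelihood test) was run on genes reaching 1 CPM in 20% or more of a fit's libraries, with region and timepoint as 1 group term. Separate fits held the apical, the lateral with baseline, all myocardial and all libraries. DESeq2 1.42.0, other scaling, filters and library sets, and swine as a block were alternatives. Libraries of the same swine come from the same animal by the labels, and their deviations from group means had a mean correlation of 0.104, against -0.0476 between animals. Exons were matched with BLAST 2.17.0. The fits were checked on simulated counts.

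The members, lists and tests were chosen with earlier results of these data known, and the ratios of counts (0.5 added) after values were seen. Named genes were the 4 members, up to 5 of a list by smallest adjusted p, and the 10 most alike. RefSeq's annotation of Sscrofa11.1 gave positions, lengths and promoters.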

Additional observations from a re-analysis of the deposited data

Results flagged for a closer look

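Of 27 pairs of a gene (SLA-DRA, SLA-DRB1 or SLA-DQA1) and a group of 4 to 10 libraries, 3 had a library far from the others by Dixon's criterion at 95%, which chance meets in about 1 of 20 such pairs. SLA-DRA in apical 0–1 h replicate 3, a fibrous library of swine 5385, was at 3.40 log2 CPM, and the nearest library of its group was at 5.12. SLA-DRB1 in apical 1–3 h replicate 6, a fibrous library of swine 1644, was at 0.45, and the nearest was at 4.05. SLA-DQA1 in apical 0–1 h replicate 4, a library of swine 1640 that was not fibrous, was at 0.04 with 5 counts, and the nearest was at 2.79.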

How the results depend on the processing

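Over the alternatives none of the 36 tests of class II genes in the myocardium gained a call. Of their 420 values under other settings 56 changed sign, and of 210 values with 1 library left out 26 did. The cause was not tested. In the lateral region 21 values against baseline changed sign, among them SLA-DRA at 1–3 h (-0.47 to 1.23) and SLA-DQA1 at day 14 (-0.61 to 1.00). In the apical region the following log2 fold changes against baseline turned sign. Without the fibrous libraries SLA-DQA1 was at 0.12 at apical 0–1 h, SLA-DRB1 at -0.03 and SLA-DQA1 at 0.10 at day 2, and SLA-DRA at -0.04, SLA-DRB1 at -0.09 and SLA-DQA1 at 0.29 at day 14. Without swine 1640 SLA-DQA1 was at 0.14 at 0–1 h and SLA-DRB1 at -0.10 at day 14. Without swine 1644 SLA-DQA1 was at 0.16 at day 2 and 0.28 at day 14. Without swine 5385 SLA-DRA was at 0.25 and SLA-DRB1 at 0.24 at 0–1 h. With all libraries of at least 1000000 counts SLA-DRA was at -0.24 and SLA-DRB1 at -0.25 at day 2.

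Leaving out 1 library at a time gave ranges across 0 in the apical region against baseline for SLA-DQA1 at 0–1 h (-0.47 to 0.20), SLA-DRB1 at 1–3 h (-0.38 to 0.06), SLA-DQA1 at day 2 (-0.59 to 0.06), and SLA-DRA (-0.16 to 0.20), SLA-DRB1 (-0.21 to 0.26) and SLA-DQA1 (-0.34 to 0.30) at day 14. Between apical and lateral at 1–3 h the range for SLA-DRB1 was -0.23 to 0.34, and ranges also crossed 0 for SLA-DQA1 at 0–1 h (-0.55 to 0.33) and SLA-DRB1 at day 2 (-0.34 to 0.45). In the lateral region 14 of 78 such values changed sign, with SLA-DRA at 1–3 h at -0.15 to 0.82. Between apical and lateral at 1–3 h SLA-DRB1 was at -0.01 with no filter, -0.07 without swine 1640 and -0.55 without swine 5385, and SLA-DRA at 0.22 without swine 1644.

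With swine as a replicate block SLA-DRB1 between apical and lateral at 1–3 h was at -0.72, and at -0.64 with counts summed per animal. The block changed no call of a class II gene, and in blood against myocardium it gave 0.67 for SLA-DRA, 1.47 for SLA-DRB1 and 2.10 for SLA-DQA1. In blood against myocardium the call of SLA-DRA was lost under 4 other settings and without 1 of 7 libraries, which takes the count of class II genes called from 3 to 2. The calls of SLA-DRB1 (1.20 to 1.65) and SLA-DQA1 (1.58 to 2.24) in blood against myocardium held under the 11 other settings. At a prior count of 0.5 the mean of SLA-DQB1 in the myocardium was -2.29 log2 CPM. Genes called at apical 1–3 h against baseline numbered 291 by edgeR, 1423 by DESeq2 and 224 with the block. Between apical and lateral at 1–3 h they numbered 12, 18 and 0, in the same order. SLA-DQA1 in the myocardium rests on a median of 51 counts a library.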

Other observations

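The 25 libraries with an even profile entered comparisons only in the setting with all libraries of at least 1000000 counts. In them the class II genes were closer to each other than in the libraries that met the rule. Their median levels were 14.9 CPM for SLA-DRA, 21.6 CPM for SLA-DRB1, 12.7 CPM for SLA-DQA1 and 4.73 CPM for SLA-DQB1. In the 57 libraries that met the rule the medians were 48.6, 39.4, 8.17 and 0.14 CPM. The log2 ratio of SLA-DQA1 to SLA-DRA was -0.24 ± 0.46 in the 15 myocardial and -0.54 ± 0.70 in the 10 blood libraries of even profile, against -2.79 ± 1.10 and -1.51 ± 0.58 in those that met the rule.

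The 6 fibrous libraries had SLA-DRA levels from 2.21 to 6.93 log2 CPM, wider than the 4.09 to 6.44 of the other 39 myocardial libraries. For SLA-DRB1 the ranges were 0.45 to 5.94 and 3.45 to 6.53. For SLA-DQA1 they were 2.05 to 4.07 and 0.04 to 4.08, so that the fibrous libraries lay within the range of the others for that gene.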
